A study of Mus musculus with 4 samples.

Results

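The genes described here make, modify and carry heparan sulfate and chondroitin sulfate, the sulfated sugar chains of cell surface and matrix proteoglycans. The 48 genes were chosen by name from what their products do, and encode glypicans, syndecans, chain-building enzymes, sulfotransferases and the extracellular sulfatases. They are 48 of the 21352 genes with a usable deposited estimate for a transcript of at least 200 bases. Of them, 37 reached a mean of 1 FPKM over the embryos and were tested, and 11 did not.

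The study asked which transcripts differ in palatal mesenchyme that lacks Foxf2, a forkhead transcription factor needed for closure of the secondary palate. RNA was sequenced from RFP+ cells sorted from the microdissected palatal shelves of 4 single E13.5 littermate embryos of mixed background. All 4 carried 1 Osr2RFP allele, a knock-in that places RFP under the endogenous Osr2 locus, and 1 embryo was Foxf2+/+, 1 was Foxf2+/- and 2 were Foxf2-/-. The Foxf2+/+ and Foxf2+/- embryos served as controls, so each control genotype had no replicate. Below they are called the wild-type and the heterozygous embryo, and the Foxf2-/- embryos the nulls. The Foxf2 deletion was constitutive and not limited to the palate, and the controls also carried the Osr2 knock-in.

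Heparan sulfate and chondroitin sulfate chains are built on serines of core proteins in the Golgi, starting from a common linkage sugar sequence, and are then sulfated at several positions. The pattern of sulfates sets which ligands bind, among them FGF, hedgehog, BMP and Wnt proteins, and Sulf1 and Sulf2 later remove some 6-O-sulfates outside the cell. FGF and Shh signalling between palatal epithelium and mesenchyme both involve ligands that bind heparan sulfate.

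Values are FPKM, fragments scaled to transcript length and to the mapped fragments of the library, summed over the RefSeq entries of a gene, so levels can be compared between genes. Differences are on the log2(FPKM + 0.1) scale, nulls minus controls, so that differences of genes at low FPKM are understated. The deposited tables hold no read counts, so the depth in reads is unknown, and the libraries were 1.02 to 1.19 times as deep as the wild-type library. Foxf2 itself was at 85.4 FPKM in the wild-type embryo, 45.1 in the heterozygote and 1.41 and 2.28 in the nulls, in the order of the labels. Osr2, whose locus drives the sorted reporter, was between 129 and 147 FPKM, and the 10 palatal mesenchyme markers summed to between 1177 and 1421 FPKM. Of these markers Shox2, Meox2, Twist1, Prrx1 and Pdgfra were lower in both nulls than in both controls, and the others overlapped. That lower order was shown by 35.8% of all tested genes. Shox2 differed most, at 114 and 73.4 FPKM in controls and 47.7 and 63.7 in nulls. Markers of other cells were low except for erythroid RNA. The 9 erythroid genes summed to 297 FPKM in the wild-type embryo, 1837 in the heterozygote and 1598 and 4375 in the nulls. The 10 epithelial genes summed to between 10.3 and 12.5 FPKM and the 6 macrophage genes to between 6.58 and 11.3 FPKM, and for both sums the groups overlapped. Sums of 3 further lists did not overlap between the groups. The 6 endothelial genes summed to 0.417 and 0.608 FPKM in controls and to 0.893 and 1.5 in nulls, each gene under 1 FPKM in every embryo. The 6 muscle genes summed to 0.904 and 0.803 FPKM in controls and to 0.454 and 0.352 in nulls, with Myog at 0 in all 4. The 6 nerve and glia genes summed to 3.53 and 5.32 FPKM in controls and to 5.54 and 5.90 in nulls. Their part in the differences below was not tested. In bulk RNA a lower value cannot tell fewer cells of a kind from less RNA per cell.

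For all of the 37 tested genes but Chst2 and Hs3st3b1 the difference between Foxf2-/- embryos and the mean of the controls was under 1.5-fold. No member passed limma at an adjusted p under 0.05 with a change of more than 1.5-fold, a call made for 7 of all 11154 genes (0.0628%). At an unadjusted p under 0.05 there were 8 members, 21.6% of those tested, beside 13.0% of all genes. They were Chst2, Hs3st3b1, Hs3st3a1 and Hs6st1, which were higher in the nulls, and Sulf1, Gpc4, Extl2 and Hs6st2, which were lower. The mean of the nulls lay more than 1.5-fold above each control for 2 members, Chst2 and Hs3st3b1, where 0.717% of all genes did so, and more than 1.5-fold below each control for 0 members, where 0.681% of all genes did so. Chst2 and Hs3st3b1 are also on the list of genes that the study selected from these libraries, which is not independent evidence of their direction. Taken in either direction, 2 members were past this fold, beside 1.4% of all genes. For 26 of the 37 members (70.3%) the 95% limma interval of the difference lay within 1.5-fold in either direction, beside 75.3% of all genes.

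**Figure D1:**
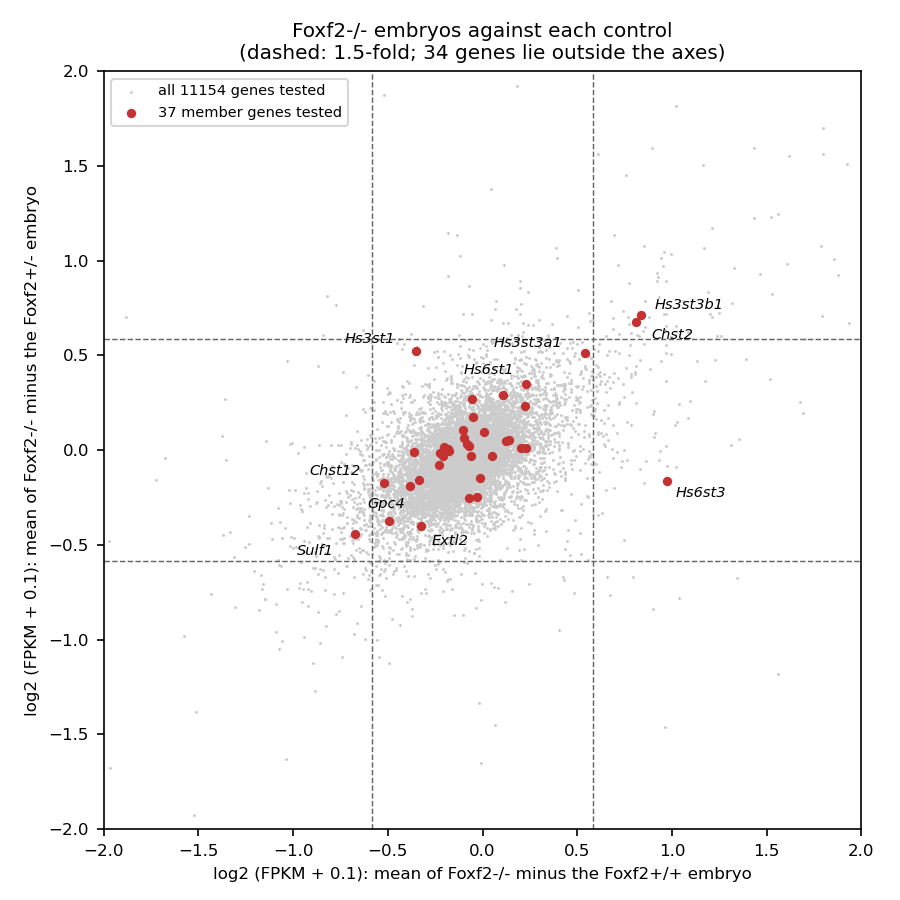
Each point is a gene, placed by the log2(FPKM + 0.1) difference of the mean of the 2 nulls from the wild-type embryo (horizontal axis) and from the heterozygote (vertical axis), with all 11154 tested genes in grey, the 37 tested members in red and dashed lines at 1.5-fold. Chst2 and Hs3st3b1 lie past the lines on the upper right, no member lies past them on the lower left, and 34 genes fall outside the axes.

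Both nulls were above both controls for 6 members (9.89% of all genes) and below both for 9 (35.8% of all genes), so 15 did not overlap in either direction (45.7% of all genes). More genes were lower than higher in the whole table as well, where the median difference was -0.08. With the embryos rescaled by median ratios that median moved to -0.0015, 10 members lay above both controls and 7 below, and the shares of all genes were 21.0% and 21.6%. The median difference of the tested members was -0.02 as deposited and 0.06 after this rescaling. Spread within a group was taken as the SD over genes of the log2 difference. It was 0.292 for the 37 members between the controls, which differ in genotype, and 0.215 between the replicate nulls. For all genes it was 0.286 and 0.278 in the same order. An exact permutation test of 1 gene, 2 embryos against 2, has 0.333 as its smallest possible p-value.

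**Figure D2:**
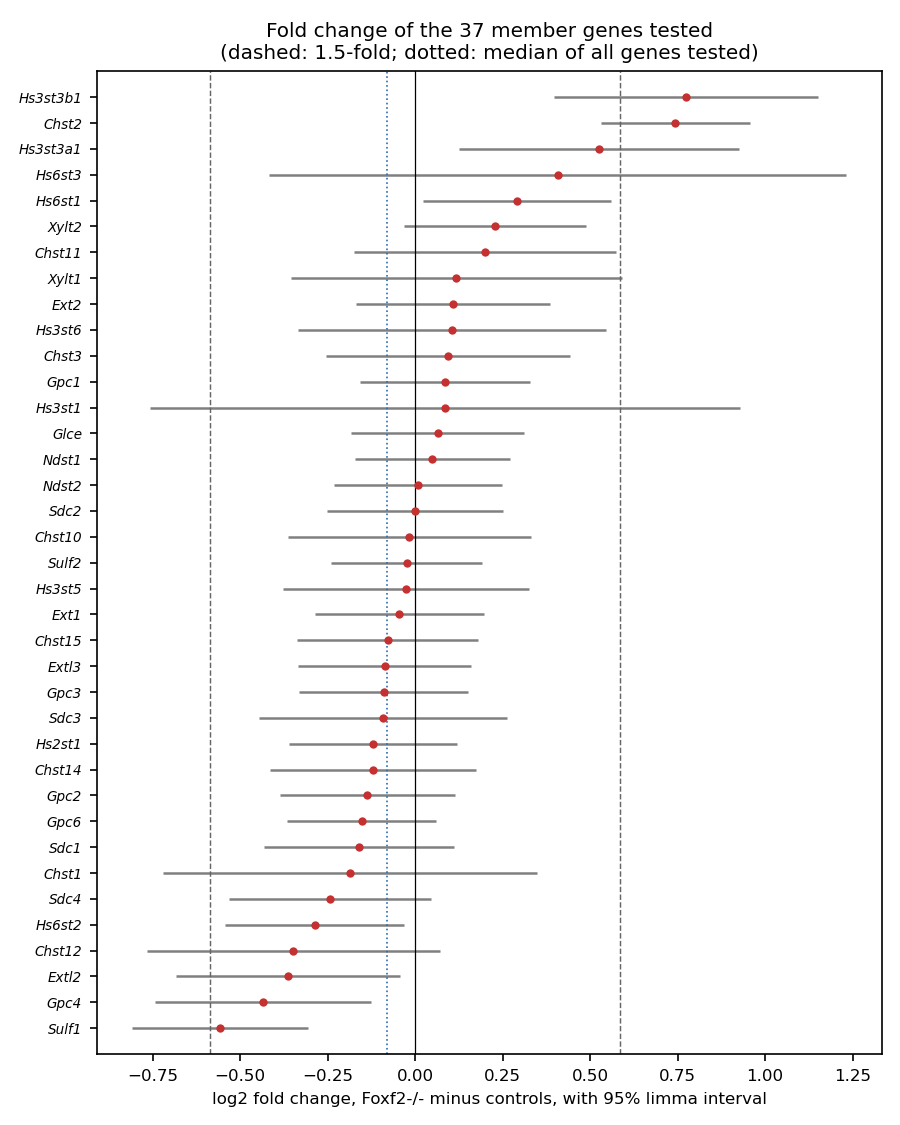
Points give the log2 fold change of each of the 37 tested members, nulls (n = 2) minus controls (n = 2), and lines its 95% limma interval, with dashed lines at 1.5-fold and a dotted line at the median of all tested genes. Hs3st3b1, Chst2 and Hs3st3a1 stand at the top and Sulf1 and Gpc4 at the bottom, and most intervals include 0.

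The genes with the greatest differences were Chst2, the 3-O-sulfotransferase genes Hs3st3b1 and Hs3st3a1, and Sulf1. Chst2 lies at chr9:95301345-95307689 on the minus strand of mm9 and has 2 exons, with its 1590 coding bases in 1 of them. Hs3st3b1 is at chr11:63698195-63735786 on the minus strand, and Hs3st3a1 at chr11:64248834-64336337 on the plus strand. Sulf1 spans chr1:12682511-12850453 on the plus strand with 22 exons. The 250 bases before the annotated start of each are shown because the first 3 genes were higher and Sulf1 lower in the nulls, so that the windows can be searched for forkhead letters. They are read in the direction of transcription from mm9, with CpG dinucleotides in capitals. Their positions are chr9:95307690-95307939, chr11:63735787-63736036, chr11:64248584-64248833 and chr1:12682261-12682510.
Chst2: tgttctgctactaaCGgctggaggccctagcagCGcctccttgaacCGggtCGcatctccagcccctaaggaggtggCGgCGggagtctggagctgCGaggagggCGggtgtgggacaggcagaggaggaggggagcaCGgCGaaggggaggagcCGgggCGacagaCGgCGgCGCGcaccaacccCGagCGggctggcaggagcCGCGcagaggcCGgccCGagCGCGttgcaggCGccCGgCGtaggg
Hs3st3b1: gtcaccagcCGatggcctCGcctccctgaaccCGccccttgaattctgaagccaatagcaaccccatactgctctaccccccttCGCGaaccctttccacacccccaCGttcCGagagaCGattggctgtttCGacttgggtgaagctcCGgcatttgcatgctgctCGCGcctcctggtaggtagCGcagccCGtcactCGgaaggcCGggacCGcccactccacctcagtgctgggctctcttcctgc
Hs3st3a1: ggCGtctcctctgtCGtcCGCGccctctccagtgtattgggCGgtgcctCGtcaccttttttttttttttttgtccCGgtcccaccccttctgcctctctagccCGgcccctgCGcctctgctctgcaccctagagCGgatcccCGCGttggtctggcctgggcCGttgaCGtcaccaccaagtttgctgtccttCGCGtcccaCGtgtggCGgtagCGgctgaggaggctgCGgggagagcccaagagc
Sulf1: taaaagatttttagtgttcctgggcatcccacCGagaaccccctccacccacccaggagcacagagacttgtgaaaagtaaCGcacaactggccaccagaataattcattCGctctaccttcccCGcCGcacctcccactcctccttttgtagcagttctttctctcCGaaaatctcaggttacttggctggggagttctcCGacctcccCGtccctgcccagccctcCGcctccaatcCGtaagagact

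The letters TAAACA, the core that forkhead factors bind, and the variant TAAATA were searched on both strands. They occur in none of these 4 windows. Among all tested genes with such a window, 7.02% of 10984 held TAAACA, 6.15% held TAAATA and 12.45% held either. Of the 37 tested members 5 held either, 13.51%, namely Gpc6, Extl2, Glce, Chst12 and Chst15. A match or its absence in these 250 bases says nothing of binding elsewhere at the gene. The windows held 27 CpG dinucleotides for Chst2, 17 for Hs3st3b1, 20 for Hs3st3a1 and 10 for Sulf1, against a median of 17 over all windows and 19 over the members.

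Core proteins gave most of the members' RNA. The glypicans, which hold heparan sulfate at the cell surface through a lipid anchor, summed to between 469 and 555 FPKM, and the membrane-spanning syndecans to between 53.7 and 65.1 FPKM. Within each embryo the glypican sum was 8.0 to 8.73 times the syndecan sum. Gpc3, which binds hedgehog ligands and whose loss causes overgrowth in humans and mice, was the highest of the 48 genes. Gpc3 was at 396 FPKM in the wild-type embryo, 351 in the heterozygote and 336 and 365 in the nulls, which overlapped. It made up 70.3% to 72.0% of the glypican FPKM in every embryo, and its difference was -0.09 with an interval of -0.33 to 0.15. Gpc6 followed at 114, 103, 95.7 and 99.6 FPKM in the same order of embryos, with both nulls just below both controls. The Gpc6 difference was -0.15 with an interval of -0.36 to 0.06.

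**Figure D3:**
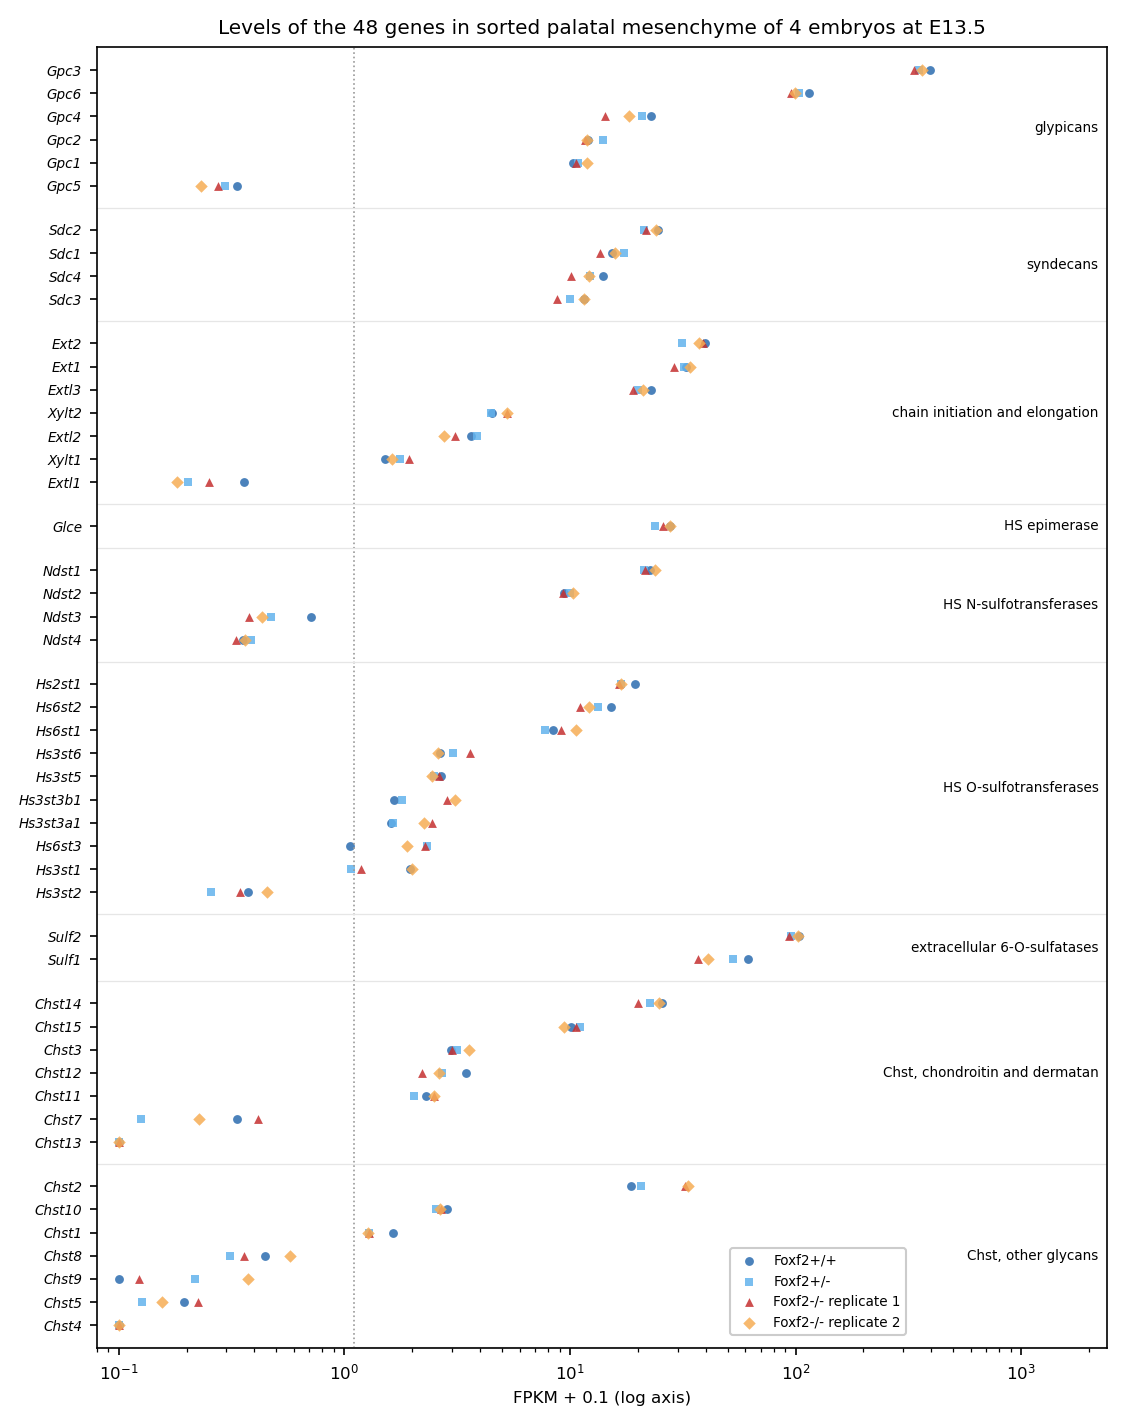
Points give FPKM + 0.1 on a log axis for the 48 genes in each of the 4 embryos, grouped by role and ordered by mean level, with 4 markers for the 4 embryos and a dotted line at 1 FPKM. Gpc3 lies highest, followed by Gpc6 and Sulf2, the markers of most genes sit close together, and Chst2 is seen with both null markers to the right of both controls.

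Gpc4, the neighbour of Gpc3 on the X chromosome, was the glypican with the greatest difference. It was at 22.7 FPKM in the wild-type embryo, 20.8 in the heterozygote and 14.1 and 18.2 in the nulls. Both nulls were below both controls, and the 2 of them differed from each other by more than the controls did. The difference was -0.43 with an SE of 0.13 (limma, adjusted p = 0.299). The ratio of Gpc4 to Gpc3 within an embryo, which needs no scaling between libraries, was 0.0573 and 0.0592 in controls and 0.0420 and 0.0499 in nulls. Hs6st2, Gpc4 and Gpc3 lie within 1227 kb of the X chromosome, and Hs6st2 and Gpc4 were both lower in the nulls while Gpc3 overlapped. Gpc1 lay between 10.3 and 11.8 FPKM and Gpc2 between 11.6 and 13.9 FPKM. Gpc5 reached at most 0.234 FPKM and was not tested.

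The 4 syndecans were between 8.67 and 24.5 FPKM, with Sdc2 the highest. Sdc2 was at 24.5, 21.2, 21.6 and 24.0 FPKM, and its difference of 0.00 had an interval of -0.25 to 0.25. Sdc4 was the syndecan whose groups did not overlap, at 13.9 and 12.2 FPKM in controls and 10.0 and 12.0 in nulls. Both nulls were below both controls for 35.8% of all genes. The nearest values of Sdc4, 12.2 and 12.0, were closer than the spread within either group. The intervals of all 4 syndecans lay within 1.5-fold, as did those of 75.3% of all genes.

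Of the enzymes that start and lengthen the chains, 6 were tested. Xylt1 and Xylt2 attach the first xylose to the core protein, and Xylt2 was the more abundant. Xylt2 was at 4.40 and 4.37 FPKM in controls and 5.15 and 5.17 in nulls, which did not overlap and were tight within each group. Its difference was 0.23 with an SE of 0.11 (limma, adjusted p = 0.436). Ext1 and Ext2 form the enzyme complex that polymerises heparan sulfate, and both overlapped between the groups. Ext2 was at 39.4 and 31.4 FPKM in controls and 38.6 and 37.3 in nulls, and Ext1 lay between 28.8 and 34.0 FPKM. Extl3, which adds the first glucosamine that commits a chain to heparan sulfate, lay between 19.0 and 22.7 FPKM. Extl1 reached at most 0.260 FPKM and was not tested.

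Extl2, a transferase that can cap the linkage sugars and stop a chain, was at 3.56 and 3.76 FPKM in controls and 2.99 and 2.67 in nulls. Both nulls were below both controls, with a difference of -0.36 and an SE of 0.14 (limma, adjusted p = 0.347). Its entries did not behave alike. Entry NM_021388 was at 1.84 and 1.17 FPKM in controls and 0.661 and 0.577 in nulls. Entry NM_001163514 was at 1.71 and 2.59 FPKM in controls and 2.06 and 2.09 in nulls, between the controls. NM_021388 held 51.6% and 31.0% of the gene's FPKM in controls and 22.1% and 21.7% in nulls. When only the entry with the highest mean was kept, the Extl2 difference was -0.02. The mean read coverage of these entries was between 0.895 and 4.18, and no error of the split between entries was used here.

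Enzymes that set up the chain for sulfation showed small differences. Ndst1, which swaps acetyl for sulfate on glucosamine, was at 22.5 and 21.1 FPKM in controls and 21.5 and 23.7 in nulls. Ndst2 lay between 9.25 and 10.2 FPKM, and Ndst3 and Ndst4 reached at most 0.612 and 0.287 FPKM. Glce, the epimerase that turns glucuronic into iduronic acid, was at 27.7 and 23.7 FPKM in controls and 25.8 and 27.8 in nulls. The intervals of Ndst1, Ndst2 and Glce all lay within 1.5-fold, as did those of 75.3% of all genes.

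The heparan sulfate O-sulfotransferases held 4 of the 8 members with an unadjusted p under 0.05. Those 4 were 44.4% of the 9 tested in this list, beside 13.0% of all genes. Hs2st1, which sulfates the 2-O position, was the highest of them at 19.4 and 16.7 FPKM in controls and 16.5 and 16.7 in nulls. Its difference was -0.12 with an interval of -0.36 to 0.12. The 3-O-sulfotransferases, which add the rarest of the sulfates, reached at most 3.50 FPKM in any embryo.

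Hs3st3b1 was at 1.57 FPKM in the wild-type embryo, 1.71 in the heterozygote and 2.75 and 3.00 in the nulls. Both nulls were above both controls, by more than the spread within either group. The mean was 2.87 ± 0.18 FPKM (SD, n = 2) against 1.64 ± 0.10 (SD, n = 2) in controls. The difference was 0.77 with an SE of 0.16, or 0.83 against the wild-type embryo and 0.71 against the heterozygote, and limma gave an adjusted p of 0.177. Its mean read coverage was between 2.13 and 4.65, which is low.

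Hs3st3a1, its close relative that makes the same kind of 3-O-sulfated site, was at 1.51 and 1.54 FPKM in controls and 2.34 and 2.15 in nulls. These did not overlap either, and the difference was 0.53 with an SE of 0.17 (limma, adjusted p = 0.308), short of 1.5-fold. As relatives with similar coding sequence, the genes may share reads that the estimation had to divide between them. They are transcribed away from each other on chromosome 11, with 513 kb between them. Of the genes between them Cox10 had a difference of -0.05 and 2810001G20Rik one of 0.11. The noncoding gene F930015N05Rik, on the other strand, has a span, introns counted, that overlaps the start of Hs3st3a1 by 1343 bases. The overlap of their exons was not measured. F930015N05Rik was at 0.901 and 1.01 FPKM in controls and 1.59 and 1.38 in nulls. The library kit does not mark strand, so reads from any exons that overlap cannot be told apart.

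The other 3-O-sulfotransferases overlapped between the groups. Hs3st5 lay between 2.35 and 2.57 FPKM, Hs3st6 between 2.51 and 3.50 FPKM and Hs3st1 between 0.968 and 1.89 FPKM, and Hs3st2 reached at most 0.356 FPKM. Hs3st3a1 and Hs3st3b1 together held 29.7% and 33.4% of the FPKM of the 6 Hs3st members in controls and 40.9% and 42.0% in nulls.

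The 6-O-sulfotransferases Hs6st1 and Hs6st2 differed in opposite directions. Hs6st1 was at 8.28 and 7.63 FPKM in controls and 9.03 and 10.5 in nulls, a difference of 0.29 with an SE of 0.11 (limma, adjusted p = 0.356). Hs6st2 was at 15.1 and 13.2 FPKM in controls and 11.0 and 12.1 in nulls, a difference of -0.29 with an SE of 0.11 (limma, adjusted p = 0.349). For neither gene did the groups overlap, as for 45.7% of all genes in either direction, and neither difference reached 1.5-fold. The ratio of Hs6st1 to Hs6st2 within an embryo was 0.548 and 0.580 in controls and 0.821 and 0.868 in nulls. The 2 genes were paired after their opposite directions were seen, so this ratio restates their values and adds no support. The main Hs6st2 entry, NM_015819, held 83.9% to 91.7% of the gene's FPKM in every embryo.

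Hs6st3 was at 0.956 FPKM in the wild-type embryo, 2.22 in the heterozygote and 2.18 and 1.79 in the nulls. Its low value in 1 control set it apart in the plot against each control, with a difference of 0.98 from the wild-type embryo and -0.16 from the heterozygote.

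**Figure D4:**
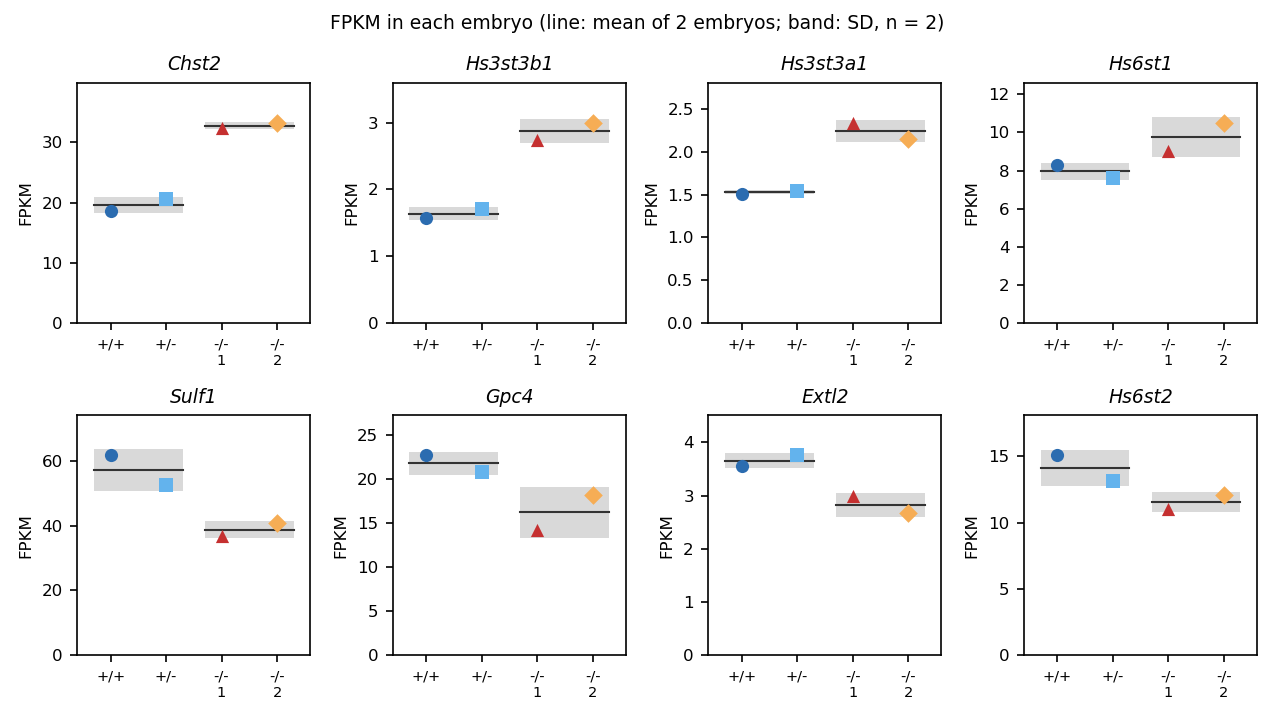
Each panel gives the FPKM of 1 gene in the wild-type embryo, the heterozygote and the 2 nulls, with the mean of each group as a line and its SD (n = 2) as a band, on an axis that starts at 0. The top row holds Chst2, Hs3st3b1, Hs3st3a1 and Hs6st1, higher in both nulls, and the bottom row Sulf1, Gpc4, Extl2 and Hs6st2, lower in both.

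The sulfatases Sulf1 and Sulf2 were both abundant but only Sulf1 had groups that did not overlap. Its nulls were both below both controls, an order that 35.8% of all genes showed. Sulf1 was at 61.7 FPKM in the wild-type embryo, 52.6 in the heterozygote and 36.8 and 40.7 in the nulls. The mean was 38.7 ± 2.7 FPKM (SD, n = 2) against 57.2 ± 6.5 (SD, n = 2) in controls. The difference was -0.56 with an SE of 0.11 (limma, adjusted p = 0.174). It was -0.67 against the wild-type embryo and -0.44 against the heterozygote, with 1.5-fold reached against the wild-type embryo alone. When only the entry with the highest mean was kept, the Sulf1 difference was -0.62 and passed 1.5-fold against each control. Sulf2 was at 104 and 95.8 FPKM in controls and 93.5 and 103 in nulls, and its difference of -0.02 had an interval of -0.24 to 0.19. The ratio of Sulf1 to Sulf2 within an embryo was 0.595 and 0.549 in controls and 0.394 and 0.396 in nulls. Most Sulf1 came from entry NM_001198565, at 50.3 and 48 FPKM in controls and 30.6 and 33.3 in nulls. The second entry, NM_001198566, overlapped, at 10.7 and 2.91 FPKM in controls and 5.21 and 6.04 in nulls. Of the nearest genes with an entry, Slco5a1 had a difference of -0.33 and Ncoa2 one of -0.03.

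**Figure D5:**
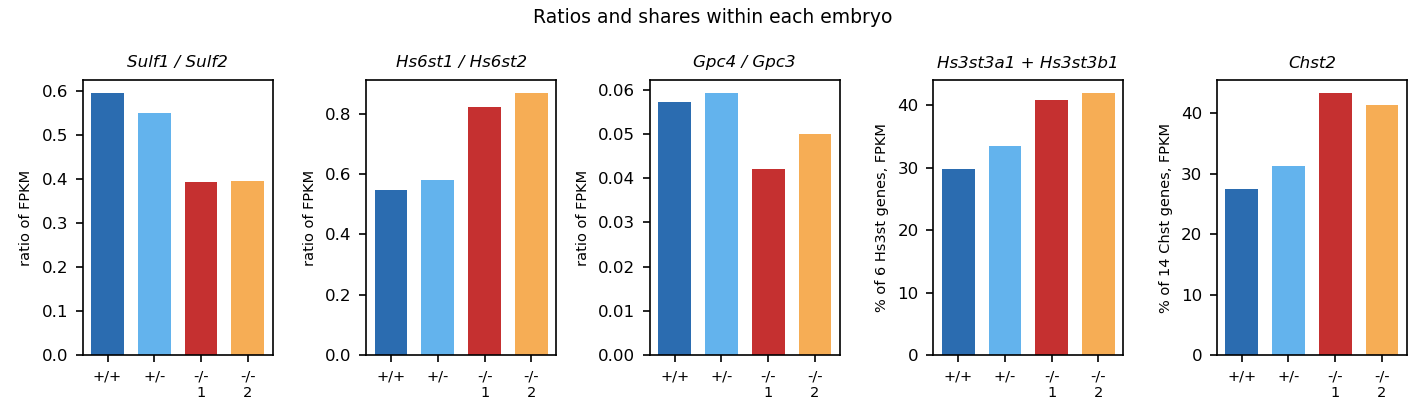
Bars give, within each of the 4 embryos, the ratio of FPKM of Sulf1 to Sulf2, Hs6st1 to Hs6st2 and Gpc4 to Gpc3, the share of the 6 Hs3st genes held by Hs3st3a1 and Hs3st3b1, and the share of the 14 Chst genes held by Chst2, on axes that start at 0. In each panel both nulls lie on the same side of both controls, and the genes paired were chosen after their values were seen.

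Of the 5 tested chondroitin and dermatan sulfotransferases, 4 had an interval within 1.5-fold, beside 75.3% of all genes. Chst14, which sulfates dermatan sulfate and is the highest of them, was at 25.6 and 22.6 FPKM in controls and 19.9 and 24.6 in nulls. Chst15, which adds a further sulfate to chondroitin sulfate, lay between 9.29 and 11.0 FPKM, and Chst3, a chondroitin 6-O-sulfotransferase, between 2.87 and 3.46 FPKM. The chondroitin 4-O-sulfotransferases were low. Chst11 was at 2.21 and 1.93 FPKM in controls and 2.39 and 2.39 in nulls, and Chst12 was at 3.35 and 2.62 FPKM in controls and 2.11 and 2.52 in nulls. Neither gene's groups overlapped, as for 45.7% of all genes in either direction, and limma gave an unadjusted p of 0.252 and 0.0908. Chst7 reached at most 0.316 FPKM, and Chst13 was listed at 0 in all 4 embryos.

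Chst2 had the smallest p of the 37 tested members, and it acts on neither heparan nor chondroitin sulfate. It encodes a sulfotransferase that places a 6-O-sulfate on N-acetylglucosamine of keratan sulfate and other glycans, such as the ligands of L-selectin. Chst2 was at 18.6 FPKM in the wild-type embryo, 20.5 in the heterozygote and 32.4 and 33.2 in the nulls. The groups lay far apart against their own spread, with means of 32.8 ± 0.61 FPKM (SD, n = 2) and 19.6 ± 1.3 (SD, n = 2). The difference was 0.74 with an SE of 0.09 and an interval of 0.53 to 0.96, or 1.67-fold. It was 0.81 against the wild-type embryo and 0.67 against the heterozygote. limma gave an adjusted p of 0.0614, above the threshold, and values under 0.05 under 4 of 18 other settings. With all 4 embryos kept, the limma adjusted p ranged from 0.0414 to 0.341 over these settings. Those that changed only the fold threshold used the same fit, so they could not move it. In level Chst2 stood 2306th and 1999th among the 11154 tested genes in controls and 1062nd and 1107th in nulls. Its mean read coverage was 25.3 and 33.1 in controls and 45.0 and 51.6 in nulls. The neighbour Slc9a9 was at 0.867, 0.861, 0.728 and 1.07 FPKM and 2610101N10Rik had a difference of -0.08.

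The other Chst enzymes of this kind were low. Chst10, which sulfates the HNK-1 carbohydrate, lay between 2.45 and 2.76 FPKM, and Chst1, a keratan sulfate sulfotransferase, between 1.17 and 1.55 FPKM. Chst5, Chst8 and Chst9 reached at most 0.125, 0.477 and 0.276 FPKM, and Chst4 was listed at 0 in all 4 embryos. Chst2 thus held 27.6% and 31.2% of the FPKM of the 14 Chst genes in controls and 43.4% and 41.4% in nulls.

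The wider pathway was read from 63 further genes for linkage sugars, chondroitin chains, sulfate supply, degradation and other core proteins. Of these 52 were tested, 0 passed limma, and 14 had an unadjusted p under 0.05 (26.9%, beside 13.0% of all genes). Both nulls lay above both controls for 9 of them and below for 17, orders that 9.89% and 35.8% of all genes showed. Past 1.5-fold against each control there was 1 gene higher and 1 lower, beside 0.717% and 0.681% of all genes. The higher gene was Chsy3, 1 of the polymerases of chondroitin sulfate, at 0.983 and 1.04 FPKM in controls and 1.98 and 2.05 in nulls. Its difference was 0.93 with an SE of 0.19 (limma, adjusted p = 0.177). Its more abundant relative Chsy1 was at 34.9 and 29.2 FPKM in controls and 29.1 and 30.8 in nulls. The lower gene was Col9a2, a chain of the cartilage collagen IX that can carry chondroitin sulfate, at 5.32 and 3.86 FPKM in controls and 2.00 and 2.70 in nulls. Its difference was -0.93 with an SE of 0.20 (limma, adjusted p = 0.195), and it too is on the study's own list.

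Genes that were the highest of other wider lists were as follows. Vcan, the large chondroitin sulfate proteoglycan versican, was the highest core protein at 154 and 156 FPKM in controls and 211 and 175 in nulls, a difference of 0.31 with an SE of 0.11 (limma, adjusted p = 0.335). Papss1, which makes the sulfate donor PAPS, was at 23.2 and 21.9 FPKM in controls and 19.6 and 19.4 in nulls, a difference of -0.21. Fam20b, the kinase that phosphorylates the linkage xylose, was at 7.42 and 8.08 FPKM in controls and 6.43 and 7.24 in nulls. Dse, a dermatan sulfate epimerase, lay between 5.60 and 6.42 FPKM, and Gpld1, a phospholipase that can release glypicans, between 4.30 and 5.40 FPKM. The median difference of the 5 tested linkage genes was -0.18, where that of all genes was -0.08. Medians of the other wider lists ran from -0.21 (glypican release, 1 tested gene) to 0.02 (other core proteins). Of the 5 linkage genes, 3 had both nulls below both controls, an order that 35.8% of all genes showed.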

How the data were processed

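RNA-seq values of 4 embryos were read from 1 table per embryo. The authors sorted RFP+ cells, made libraries with a Nextera kit that does not mark strand, and mapped the single-end reads onto mm9 (Tophat and, per the labels, Bowtie 0.12.7). They deposited FPKM for 28107 RefSeq entries, in Cufflinks-form tables, with the coverage (mean read depth, not scaled for library size) of each entry. The program's version and options are not given in the sources used here. Replicates were not pooled.

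Entries of at least 200 bases were summed by gene symbol, and 10 genes with a failed estimate were left out. The 54 member entries all had a usable estimate, and 44 members had 1 entry. The 11154 genes with a mean of at least 1 FPKM were fitted together as log2(FPKM + 0.1) in limma 3.58.1 (R 4.3.3) with a variance trend, Foxf2-/- against both controls, with Benjamini-Hochberg adjustment over all of them. A call needed an adjusted p under 0.05 and more than 1.5-fold. The second criterion, without a test, took the 1.5-fold cutoff against each control from the study. Here the study's test on reads was not used, since the files give FPKM. Python 3.11.15 was used with numpy 2.4.6, pandas 2.3.3 and scipy 1.17.1 for the tables, and 18 alternative settings were run. Exons and sequence came from the mm9 reference and its annotation.

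The members, lists, tests and settings were chosen with earlier results of these data known. Given in full were members past a criterion, those on the study's list and the highest of each list, and members of the same list were added to show a range. Those with an unadjusted p under 0.05, the ratios within embryos, the entries and the neighbouring genes were chosen after values were seen. p-values rest on the spread between single embryos within the nulls and within the controls, and the controls differ in genotype. limma also drew on the spread of all the genes fitted.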

Additional observations from a re-analysis of the deposited data

How the results depend on the processing

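Under 18 alternative settings no tested member whose 95% interval excluded 0 changed direction, nor did Chsy3 or Col9a2, and the other wider genes were not followed. Settings that changed only the fold threshold used the main fit, so no direction could change there. Hs3st3b1, Hs3st3a1, Extl2 and Chsy3 did not reach the filter of 5 FPKM and were not followed under it. The count of members that passed limma, 0 as reported, was 1 with a pseudocount of 1, with a filter of 5 FPKM in at least 1 embryo (24 members tested), with upper-quartile scaling and with robust moderation, and that member was Chst2 each time, with adjusted p-values of 0.0484, 0.0414, 0.0444 and 0.0436 and differences of 0.72, 0.74, 0.82 and 0.74. Among all genes limma called 0 to 38 over the settings. The 2 members past 1.5-fold against each control became 1 with a pseudocount of 1 and with the filter of 5 FPKM, 0 at a 2-fold threshold, 3 with the highest entry of each gene (adding Sulf1), and 2 to 4 with 1 embryo left out. The 4 arose without the Foxf2+/- embryo and added Hs6st3 and Sulf1, where the count over all genes went from 156 to 572. Members whose groups did not overlap, 15 as reported, numbered 24 to 28 with 1 embryo left out, beside 68.2% to 76.2% of all genes, as fewer values need to be ordered. In the wider pathway the count past 1.5-fold, 2 as reported, was 0 with a pseudocount of 1, 1 with the filter of 5 FPKM, 0 at a 2-fold threshold, and 1 to 4 with 1 embryo left out, with 1 (Chsy3) without the first Foxf2-/- embryo and 4 without the Foxf2+/- embryo (Chsy3, Hpse2, Spock3 and Col9a2). A group left with 1 embryo was assumed to vary like the other. Where no construction is named, the cause was not tested. No paired analysis was possible because only the Foxf2-/- labels carry replicate numbers, so the groups share none. Low levels limit what can be seen, since Hs3st3b1, Hs3st3a1 and Chsy3 lay at or below 3 FPKM.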
